A study of Mus musculus with 17 samples.

Results

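The 10 genes described here encode proteins by which astrocytes are known to act on synapses: *Chrdl1*, *Gpc4*, *Gpc6*, *Sparcl1*, *Sparc*, *Thbs1*, *Thbs2*, *Thbs4*, *Il33*, and *Megf10*. They were found by gene symbol among the 26556 genes counted in 17 RNA-seq libraries of mouse astrocytes, and all 10 passed the filter on low counts. Each library came from astrocytes purified by fluorescence-activated cell sorting from 4 pooled brains of FVB mice carrying *Gfap::GFP*, a reporter in which the *Gfap* promoter drives green fluorescent protein, at postnatal day 7. No animal was treated. The groups were the cortex (primary somatosensory, S1; n = 4 libraries) and 3 sensory nuclei of the thalamus, namely the dorsolateral geniculate (dLG, visual; n = 5), the ventral posteromedial (VPM, somatosensory; n = 4), and the ventral division of the medial geniculate (MGv, auditory; n = 4). The nuclei were compared with the cortex, together (n = 13) and singly, and then with each other.

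Astrocytes steer the formation, maturation, and removal of synapses in part through proteins that they release or display on their surface. Thrombospondins and SPARCL1 promote the formation of excitatory synapses, and SPARC opposes this effect of SPARCL1. Glypicans and chordin-like 1 act on the AMPA receptor subunits that a synapse holds. Interleukin-33 and the receptor MEGF10 belong to another arm, the elimination of synapses by microglia or by the astrocytes themselves. MEGF10 is a membrane protein and interleukin-33 is stored in the nucleus until its release, so that not every gene of the group encodes a classically secreted protein.

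Levels are given as CPM, the counts of a gene scaled to the size of its library by TMM factors, or as RPKM, the CPM divided by the exonic length in kilobases, which is the scale on which different genes are compared. A difference was called when its Benjamini-Hochberg adjusted p in edgeR's quasi-likelihood test over 17856 genes was under 0.1, and log2FC (log2 fold change) is given with its SE. The libraries held 18213687 to 50366363 counts, so that 3 counts, the level treated as the limit of detection, correspond to 0.0596 to 0.165 CPM. This limit covers counting error only. Cortex a held 2.46 times the median of the other libraries. The labels do not say whether libraries of a group came from separate litters, so that p-values measure the spread between pools of brains.

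The summed level of 10 astrocyte marker genes was 12979 to 13933 CPM in the cortical and 6203 to 15548 CPM in the thalamic libraries, with each marker present in every library. The highest of these sums was that of MGv c. Every other thalamic library, at 9354 CPM or less, lay below every cortical one. The markers did not move alike: *Slc1a3* averaged 5227 CPM in the cortex and 1494, 1609, and 1679 CPM in the dLG, VPM, and MGv. *Aqp4* averaged 1558 CPM in the cortex but 2014, 1908, and 1847 CPM in the same nuclei. Of the 10 markers, 3 were called higher in the cortex than in the thalamus and 0 lower. *Gfap*, whose promoter drives the reporter, ranged from only 8.97 to 19.2 CPM in the VPM but from 36.1 to 5520 CPM in the MGv. The 9 markers of the oligodendrocyte lineage summed to 6929 to 12783 CPM over the 4 groups, and the 11 neuronal markers to 446 to 1628 CPM. In such bulk libraries, fewer cells of a type and less RNA per cell cannot be told apart, and the levels below cannot be assigned to astrocytes alone.

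The promoters of *Gpc4* and *Il33* were taken from RefSeq, as windows running from 250 bases before to 50 bases after a transcription start. They are shown because *Gpc4* was higher in the cortex than in every nucleus and *Il33* the reverse, and because *Il33* has 2 annotated starts. Positions are in the build GRCm38.p6, each strand is written 5′ to 3′, and capitals mark a match on either strand to one of the 3 motifs searched, which were TATAAA (the TATA box), GGGCGG (the GC box), and CCAAT (the CCAAT box).
Gpc4 (chrX:52164874-52165173, minus strand): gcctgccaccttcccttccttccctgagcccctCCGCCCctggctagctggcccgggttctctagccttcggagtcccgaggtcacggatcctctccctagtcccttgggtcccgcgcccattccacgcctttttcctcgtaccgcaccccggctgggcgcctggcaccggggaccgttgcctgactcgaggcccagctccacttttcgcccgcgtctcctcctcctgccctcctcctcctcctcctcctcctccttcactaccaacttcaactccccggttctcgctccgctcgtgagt
Il33, upstream start (chr19:29924863-29925162, plus strand): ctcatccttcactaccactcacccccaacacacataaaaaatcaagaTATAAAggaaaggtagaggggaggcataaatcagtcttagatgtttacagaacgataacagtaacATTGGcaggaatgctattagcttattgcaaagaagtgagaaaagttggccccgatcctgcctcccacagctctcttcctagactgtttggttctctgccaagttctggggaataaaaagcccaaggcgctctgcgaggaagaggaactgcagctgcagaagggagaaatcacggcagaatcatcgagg
Il33, downstream start (chr19:29945540-29945839, plus strand): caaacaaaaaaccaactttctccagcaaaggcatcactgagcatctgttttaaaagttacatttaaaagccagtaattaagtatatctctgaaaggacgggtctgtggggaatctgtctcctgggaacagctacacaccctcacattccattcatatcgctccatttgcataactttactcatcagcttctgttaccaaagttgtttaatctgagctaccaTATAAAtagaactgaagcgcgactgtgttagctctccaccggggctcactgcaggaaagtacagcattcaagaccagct

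The *Gpc4* window held 66.7% G and C with 22 CpG dinucleotides, against a median of 52.7% over all 32851 promoter windows, and its single GGGCGG match began 217 bases before the start. That motif occurs in 35.7% of all windows. The windows of *Il33* were poorer in G and C, with 46.3% at the upstream and 42.3% at the downstream start. TATAAA, found in 13.6% of all windows, occurred once in each of them, 203 bases before the upstream start and 29 bases before the downstream start, and CCAAT, found in 37.4%, occurred once, 138 bases before the upstream start. Such matches are descriptions of the letters, and counts per gene do not tell which start was used.

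The genes spanned more than 3 orders of magnitude in level per kilobase. *Sparcl1*, which encodes a secreted SPARC-like protein, led in every group with a mean of 2304 RPKM in the cortex and of 1822, 1767, and 2066 RPKM in the dLG, VPM, and MGv. It ranked 5th, 7th, 7th, and 6th among 17849 genes in these groups. *Sparc* followed with 147, 144, 148, and 252 RPKM, and neither its range nor that of *Sparcl1* overlapped with any other member's in the same group.

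Behind these, the order depended on the region. In the cortex, *Chrdl1* (32.6 ± 3.11 RPKM, SD, n = 4) and *Gpc4* (26.7 ± 2.77 RPKM) came next with overlapping ranges, ahead of *Gpc6* (13.0 ± 0.958 RPKM) and *Il33* (5.68 ± 1.33 RPKM), which overlapped with no neighbor. In the VPM and MGv, *Il33* took the third place with 41.3 ± 6.09 and 43.3 ± 10.1 RPKM (SD, n = 4 each), above *Gpc4* and *Gpc6* without overlap, and *Chrdl1* was sixth with 2.95 ± 0.807 and 3.46 ± 0.565 RPKM. The dLG had the same first 6 genes in the same order, but there *Il33* (14.2 ± 3.39 RPKM, n = 5) overlapped with *Gpc4* (9.51 ± 2.06 RPKM). The thrombospondins and *Megf10* lay at or below 2.92 RPKM on average in all 4 groups, and most of them could not be ordered beyond the spread between libraries.

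**Figure D1:**
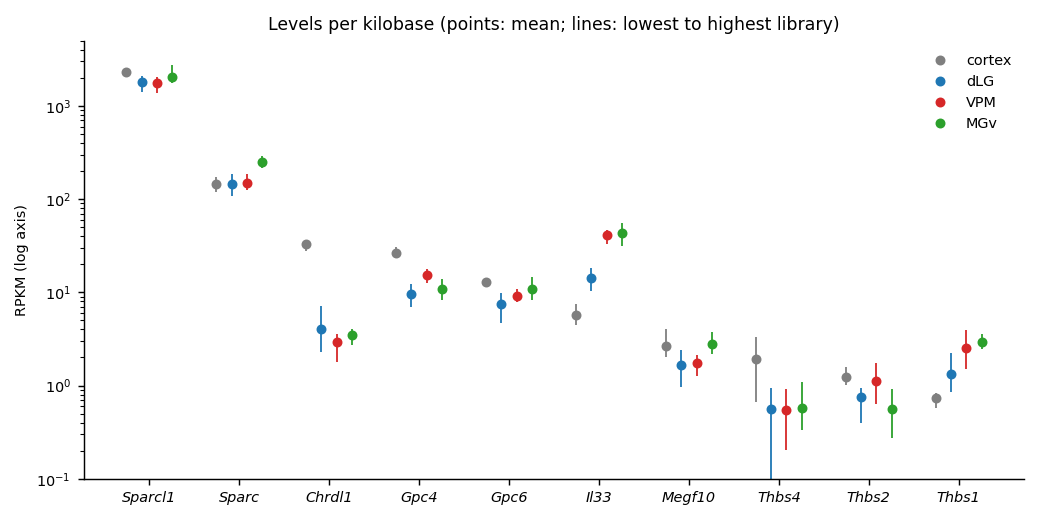
Level of each gene per kilobase of exonic length (RPKM, log axis) in cortex, VPM and MGv (n = 4 each) and dLG (n = 5), with genes ordered by their cortical mean; points are means and lines run from the lowest to the highest library, and the line of Thbs4 in the dLG, where 1 library held 0 counts, ends at the lower edge of the axis. Sparcl1 and Sparc stood above the rest in all groups, and Chrdl1 and Il33 exchanged places between cortex and thalamus.

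Between the thalamus and the cortex, 2 of the 10 genes were called higher in the thalamus and 4 higher in the cortex, where 5.45% and 5.93% of all genes tested were called in these directions (11.4% in all). The median log2FC of the 10 genes was -0.46, against 0.02 over all genes. The genes higher in the cortex were *Chrdl1*, *Gpc4*, *Gpc6*, and *Thbs4*, and those higher in the thalamus were *Thbs1* and *Il33*. *Sparcl1*, *Sparc*, *Thbs2*, and *Megf10* did not pass the test. Each nucleus was also set against the same 4 cortical libraries, so that these comparisons share their controls and are given side by side.

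*Chrdl1* (X:143285674-143394262, minus strand, GRCm38) encodes a secreted BMP antagonist known to bring GluA2-containing AMPA receptors to synapses. Its level was 232, 229, 189, and 231 CPM in the cortical libraries a to d, and 12 to 48.4 CPM with a median of 23.6 CPM in the 13 thalamic libraries. The lowest cortical library was thus well above the highest thalamic one, which was dLG c. The difference was 9.23-fold (log2FC = -3.21 ± 0.21, adjusted p = 3.56e-09) and ranked 12th by p among all genes. It passed the test in each nucleus, with a log2FC of -3.01 ± 0.28 for the dLG, -3.47 ± 0.31 for the VPM, and -3.23 ± 0.31 for the MGv.

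Among the nuclei, *Chrdl1* did not differ by the test. Its level was 15.4, 24.5, 48.4, 31.8, and 16.3 CPM in the dLG, 21.9, 12, 24.4, and 21.4 CPM in the VPM, and 24.6, 18.2, 23.6, and 27.3 CPM in the MGv, so that the ranges overlapped. The log2FC was 0.45 ± 0.27 for the dLG over the VPM, 0.22 ± 0.27 for the dLG over the MGv, and -0.23 ± 0.29 for the VPM over the MGv. The coefficient of variation was 49.7% in the dLG, against 9.56% in the cortex.

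**Figure D2:**
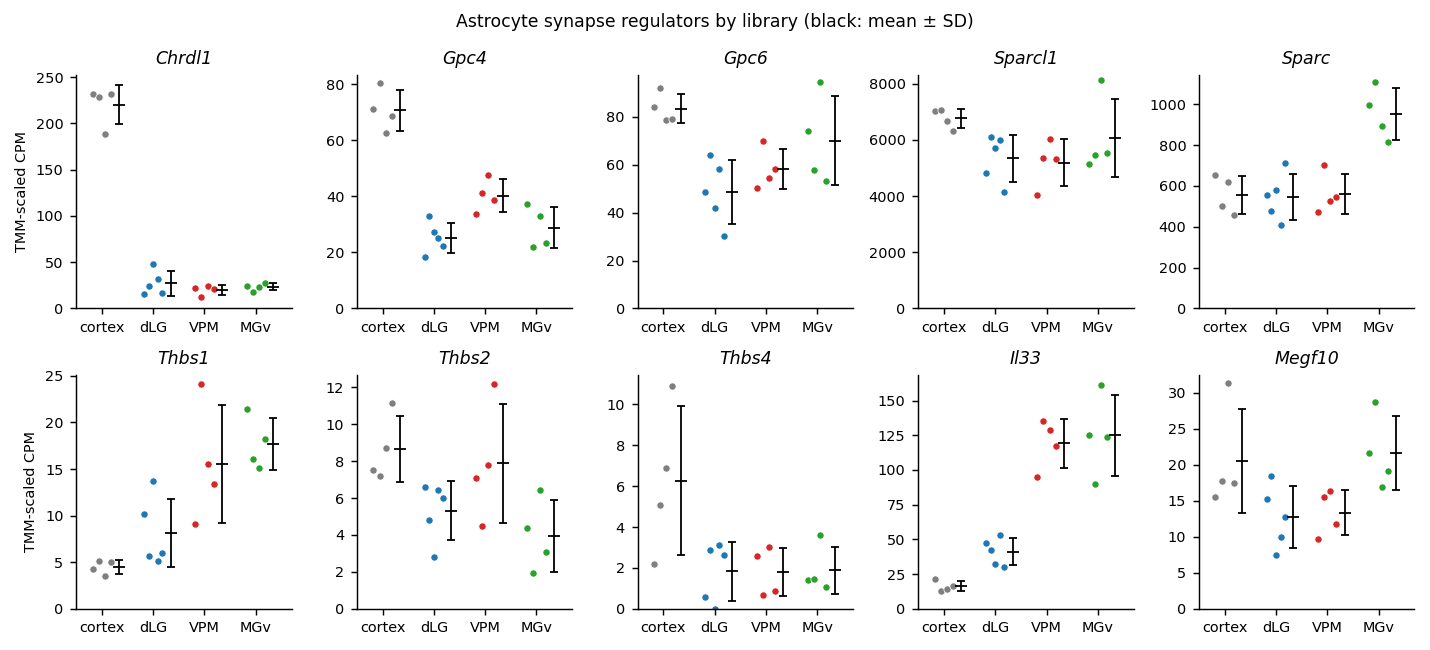
TMM-scaled CPM of each gene in every library (colored points), with mean and SD in black, for cortex, VPM and MGv (n = 4 each) and dLG (n = 5); each panel has its own axis from 0. Cortical and thalamic libraries do not overlap for Chrdl1, Gpc4, Thbs1 and Il33, and MGv libraries stand above all others for Sparc.

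The glypicans *Gpc4* (X:52053021-52165252, minus strand) and *Gpc6* (14:116925315-117976544, plus strand) encode heparan sulfate proteoglycans, anchored to the membrane and released from it, that recruit GluA1-containing AMPA receptors. *Gpc4* was at 71.3, 80.4, 62.8, and 68.6 CPM in the cortex and at 18.3 to 47.6 CPM, with a median of 32.9 CPM, in the thalamus. The regions did not overlap, and *Gpc4* was 2.29-fold lower in the thalamus (log2FC = -1.19 ± 0.19, adjusted p = 0.000269).

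Unlike *Chrdl1*, *Gpc4* also varied among nuclei. It was at 18.3, 32.9, 27.3, 25.3, and 22.2 CPM in the dLG, at 33.6, 41.1, 47.6, and 38.8 CPM in the VPM, and at 37.2, 22.1, 32.9, and 23.3 CPM in the MGv. Every VPM library was above every dLG library, by the smallest margin between VPM a and dLG b. *Gpc4* was 1.6-fold lower in the dLG than in the VPM (log2FC = -0.68 ± 0.18, adjusted p = 0.0327), a call that ended without VPM c (adjusted p = 0.140). The VPM over the MGv gave 0.48 ± 0.19 (adjusted p = 0.123), which passed only without MGv a (adjusted p = 0.0851). Against the cortex, the log2FC was -1.49 ± 0.18 for the dLG, -0.81 ± 0.19 for the VPM, and -1.29 ± 0.19 for the MGv, and all 3 passed the test, that of the VPM in neither series of library numbers alone. Of the 10 astrocyte markers, *Aldoc*, *Slc1a2*, and *Slc1a3* were also higher in the cortex than in the thalamus and none was lower, and their part in the differences of *Chrdl1* and *Gpc4* was not tested.

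*Gpc6* differed less. Its cortical libraries lay at 84.2, 91.8, 78.5, and 79.2 CPM and its thalamic libraries between 30.4 and 94.4 CPM with a median of 57.9 CPM, the highest being MGv c. The regions therefore overlapped, and the lower level in the thalamus (log2FC = -0.52 ± 0.18, adjusted p = 0.0937) was called in only 6 of 23 alternative analyses (the stricter threshold and the fits of single library number series, given further on, are not in such counts), whose adjusted p ranged from 0.0240 to 0.261. Leaving out any of 13 libraries ended the call, namely each of the cortex, dLG a to d, MGv b and d, or VPM a, c, and d. The dLG, with 48.5, 63.9, 42.1, 58.2, and 30.4 CPM, stood below the cortex without overlap, and there the difference (log2FC = -0.78 ± 0.19, adjusted p = 0.0117) was called in all 14 alternatives, but in neither series of library numbers alone. For the VPM (-0.52 ± 0.20, adjusted p = 0.169) and the MGv (-0.25 ± 0.20, adjusted p = 0.481) it did not pass.

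The balance of the 2 glypicans also varied between groups. Within a library, the ratio of *Gpc6* to *Gpc4* per kilobase was 0.471 to 0.516 in the cortex, 0.564 to 1.09 in the dLG, 0.472 to 0.701 in the VPM, and 0.822 to 1.18 for the MGv. All dLG and MGv libraries were above the cortical range, whereas the VPM overlapped with it. This ratio is a description, and no test was made on it.

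*Sparcl1* (5:104079111-104113733, minus strand) and *Sparc* (11:55394500-55423183, minus strand) encode matricellular proteins of one family with opposite effects on synapse formation. *Sparcl1* was at 7015, 7063, 6656, and 6330 CPM in the cortex and at 4057 to 8124 CPM, with a median of 5474 CPM, in the thalamus. Of the thalamic libraries, MGv c alone was above all cortical ones. The difference did not pass the test (log2FC = -0.29 ± 0.14, adjusted p = 0.225), though it did without MGv c (-0.35, adjusted p = 0.0681), nor did those of the dLG (-0.34 ± 0.15, adjusted p = 0.154) and the VPM (-0.38 ± 0.16, adjusted p = 0.213), although the ranges of both nuclei lay below the cortical one.

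*Sparc* separated one nucleus from everything else. Its level was 995, 1110, 896, and 813 CPM in the MGv, but 652, 500, 619, and 456 CPM for the cortex, 556, 477, 578, 407, and 710 CPM in the dLG, and 473, 702, 524, and 548 CPM in the VPM. The lowest MGv library was above the highest of the other 3 groups. The MGv exceeded the cortex by 1.71-fold (log2FC = 0.78 ± 0.17, adjusted p = 0.00693). The dLG was 1.75-fold lower (-0.80 ± 0.16, adjusted p = 0.0199) and the VPM 1.70-fold lower than the MGv (-0.76 ± 0.17, adjusted p = 0.0121). These 3 calls held in all of their 13, 15, and 14 alternatives. The log2FC was -0.03 ± 0.16 for the dLG and 0.01 ± 0.17 for the VPM over the cortex, and that of the whole thalamus over the cortex was 0.28 ± 0.23 (adjusted p = 0.521).

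The library numbers in the labels fall into a larger series of 10 libraries, a smaller one of 6, and dLG c alone. All 4 MGv libraries belong to the larger series, which also includes 2 libraries each of the cortex, dLG, and VPM. Within that series, *Sparc* was higher in the MGv than in the cortex (log2FC = 0.85 ± 0.19, adjusted p = 0.0214) and lower in the VPM than in the MGv (-0.87 ± 0.19, adjusted p = 0.0272), whereas the dLG below the MGv (-0.88 ± 0.19) had an adjusted p of 0.121. Markers of microglia summed to 9.63 to 52.7 CPM in the MGv, 11.2 to 87.5 CPM in the dLG, 10.9 to 19.1 CPM in the cortex, and 6.44 to 11 CPM in the VPM. Of 7 such markers, 4 were higher in the MGv than in the VPM and 3 than in the cortex, but none differed by the test between the MGv and the dLG. The 6 mural cell markers summed to 56.1 to 157 CPM in the MGv, 35.8 to 104 CPM in the dLG, 70.3 to 110 CPM in the cortex, and 20.5 to 37.1 CPM in the VPM. These sums join markers that went opposite ways. *Notch3* averaged 83.5 ± 40.9 CPM in the MGv, 61.8 ± 27.4 CPM in the dLG, 35.8 ± 7.25 CPM for the cortex, and 22.8 ± 8.70 CPM in the VPM (SD), and was called higher in the MGv than in the cortex and VPM, as *Sparc* was. Unlike *Sparc* (log2FC = -0.04 ± 0.16), *Notch3* was also called higher in the dLG than in the VPM. *Pdgfrb*, at 3.52 ± 2.54 CPM in the MGv and 38.1 ± 12.9 CPM for the cortex, and *Rgs5*, at 1.38 ± 0.909 and 11.2 ± 1.57 CPM, were called lower in the MGv than in the cortex. No mural cell marker was called between the dLG and the MGv. Of 7 endothelial markers, *Cdh5* was at 0 in every MGv library, and none was called in any comparison. Of 5 fibroblast and meningeal markers, *Dcn* averaged 5.47 ± 4.18 CPM in the MGv, 1.98 ± 1.83 CPM in the dLG, 0.489 ± 0.416 CPM in the VPM, and 0 CPM for the cortex (SD). It was called higher in the MGv than in the cortex and VPM, but also higher in the dLG and VPM than in the cortex. *Col1a2* was called lower in the dLG than in the cortex, and no other marker of these 5 was called. The part of these cells in the level of *Sparc* was not tested.

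The mean ratio of *Sparcl1* to *Sparc* per kilobase within a library was lowest in the MGv. *Sparcl1* exceeded *Sparc* by a factor of 13.9 to 18.2 in the cortex, 7.54 to 19.0 in the dLG, 9.81 to 14.9 in the VPM, and 6.36 to 11.7 for the MGv. The MGv range lay below the cortical one and overlapped with those of the other nuclei.

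**Figure D3:**
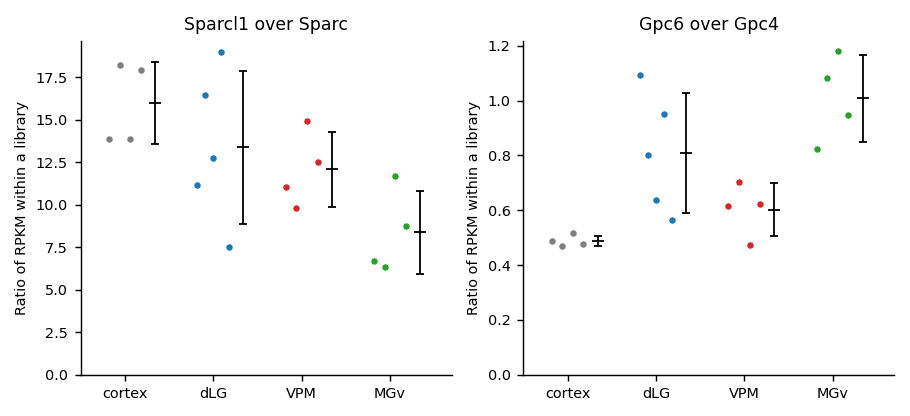
Ratio of Sparcl1 to Sparc (left) and of Gpc6 to Gpc4 (right), each computed from RPKM within a library, for cortex, VPM and MGv (n = 4 each) and dLG (n = 5); points are libraries, black marks are mean and SD, and axes start at 0. The MGv had the lowest mean ratio of Sparcl1 to Sparc, 8.38, and the highest mean ratio of Gpc6 to Gpc4, 1.01.

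The thrombospondins are large secreted glycoproteins that promote synapse formation through the calcium channel subunit α2δ-1. All 3 were low in these libraries. *Thbs1* (2:118111876-118127133, plus strand, with 3.43% of its exonic length shared with the antisense gene *Gm29233*) was at 4.28, 5.11, 3.51, and 4.97 CPM in the cortex and at 5.17 to 24.1 CPM, with a median of 13.7 CPM, in the thalamus. Every thalamic library was above every cortical one, if narrowly in the dLG. *Thbs1* was 2.99-fold higher in the thalamus (log2FC = 1.58 ± 0.37, adjusted p = 0.0105), in all 23 alternatives.

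*Thbs1* also varied over the nuclei. Its level was 10.2, 5.68, 13.7, 5.17, and 5.95 CPM in the dLG, 9.07, 24.1, 15.5, and 13.4 CPM in the VPM, and 21.5, 16.1, 15.1, and 18.2 CPM in the MGv. The dLG and VPM overlapped, whereas all MGv libraries were above all dLG libraries. Over the cortex, the log2FC was 1.79 ± 0.33 in the VPM (adjusted p = 0.00146) and 1.99 ± 0.33 in the MGv (adjusted p = 0.000597), each in all 13 alternatives, though the VPM did not pass in the smaller series of library numbers alone (adjusted p = 0.233).

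The mean of the dLG lay between these nuclei and the cortex. Its log2FC over the cortex was 0.87 ± 0.31 (adjusted p = 0.0734), which was called in 6 of 14 alternatives and ended without any one cortical library, dLG a, or dLG c (adjusted p up to 0.185). Below the VPM, the dLG gave -0.93 ± 0.30 (adjusted p = 0.0663), called in 7 of 15 and lost without dLG b, dLG e, VPM b, VPM c, or VPM d (adjusted p up to 0.205). Below the MGv it gave -1.12 ± 0.30, which did not pass the test over all genes (adjusted p = 0.123) but did without dLG c (adjusted p = 0.0195). In that comparison 1.02% of all genes were called.

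*Thbs2* (17:14665500-14694235, minus strand) was lowest on average in the MGv. It was at 7.54, 7.17, 8.71, and 11.1 CPM in the cortex, at 6.60, 4.82, 2.79, 6.41, and 6.0 CPM in the dLG, at 7.07, 4.46, 7.80, and 12.2 CPM in the VPM, and at 4.38, 1.92, 6.46, and 3.08 CPM in the MGv. The MGv and dLG libraries were all below the cortical ones, and the VPM spanned both. The MGv was 2.18-fold below the cortex (log2FC = -1.12 ± 0.38, adjusted p = 0.0653), called in 7 of 13 alternatives and lost without cortex c, cortex d, MGv a, MGv b, or MGv d (adjusted p up to 0.222). The log2FC was -0.70 ± 0.35 in the dLG (adjusted p = 0.206), -0.13 ± 0.37 in the VPM, and -0.60 ± 0.33 in the whole thalamus (adjusted p = 0.315), none of which passed. The VPM over the MGv gave 0.99 ± 0.38 (adjusted p = 0.104), which passed in 5 of 14 alternatives, among them without MGv c (adjusted p = 0.0594) or VPM b (adjusted p = 0.0666).

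*Thbs4* (13:92751590-92794818, minus strand) was at 2.20, 5.06, 6.88, and 10.9 CPM in the cortex and at 0 to 3.61 CPM, with a median of 1.45 CPM, in the thalamus. The level of 0 was that of dLG c, the library with the fewest detected genes (17749), and cortex a lay within the thalamic range. The thalamic mean was 3.40-fold lower (log2FC = -1.76 ± 0.59, adjusted p = 0.0773). The call was made in 15 of 23 alternatives and was lost without cortex b, c, or d, dLG a, or MGv a, b, or d. Without cortex d the adjusted p was 0.364 and the log2FC -1.33, and without dLG c they were 0.0210 and -1.65. No single nucleus passed the test against the cortex, with a log2FC of -1.76 ± 0.78 for the dLG, -1.80 ± 0.84 for the VPM, and -1.73 ± 0.84 for the MGv.

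Markers of ependymal cells, the ciliated cells that line the ventricles, moved with *Thbs4* in the cortex. The 5 markers summed to 3.48, 25.1, 37.9, and 101 CPM in cortex a to d, which rank alike by *Thbs4*, and to 0.283 to 8.49 CPM in the thalamus. *Foxj1* and *Rsph1*, the 2 markers that passed the filter, were higher in the cortex than in the thalamus, and *Pifo* was at 0 in every thalamic library. Their part in the result was not tested.

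*Il33* (19:29925114-29960718, plus strand) encodes a cytokine of the interleukin-1 family that astrocytes release and that acts on microglia. Its level was 21.7, 13.0, 14.2, and 16.6 CPM in the cortex and ranged from 30.0 to 161 CPM, with a median of 95.1 CPM, in the thalamus. The regions did not overlap, and *Il33* was 5.52-fold higher in the thalamus (log2FC = 2.47 ± 0.44, adjusted p = 0.000948), in all 23 alternatives. Of the 10 genes it gave the largest change toward the thalamus.

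The nuclei fell into 2 levels of *Il33*. The dLG was at 47.2, 42.0, 32.5, 53.2, and 30.0 CPM, the VPM at 95.1, 135, 129, and 117 CPM, and the MGv at 125, 89.7, 161, and 124 CPM. Every library of the VPM and MGv was above every library of the dLG, and these in turn were above those of the cortex. The dLG was 2.91-fold below the VPM (log2FC = -1.54 ± 0.20, adjusted p = 0.000221) and 3.05-fold below the MGv (-1.61 ± 0.20, adjusted p = 0.000149), both in all 15 alternatives. The VPM and MGv gave a log2FC of -0.07 ± 0.21 between them (adjusted p = 0.877). Over the cortex, the log2FC was 1.32 ± 0.20 for the dLG, 2.85 ± 0.22 for the VPM, and 2.92 ± 0.22 for the MGv.

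Oligodendrocyte lineage cells can also hold *Il33*, and their markers were abundant. None of the 9 markers was called between thalamus and cortex or between the dLG and the MGv, where *Il33* differed. Between the dLG and the VPM, 3 were lower and 1 was higher in the dLG, and against the cortex *Mbp* was higher in the VPM and *Mog* was lower in the MGv. Their summed level was 7531 to 9172 CPM in the cortex, 8145 to 9911 CPM in the dLG, 7675 to 12783 CPM in the VPM, and 6929 to 8770 CPM in the MGv. The part of these cells in the level of *Il33* was not tested.

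*Megf10* (18:57133090-57297467, plus strand) encodes a receptor by which astrocytes engulf synapses. It was at 15.5, 17.8, 31.3, and 17.5 CPM in the cortex, at 15.3, 18.4, 7.51, 9.94, and 12.8 CPM in the dLG, at 9.74, 15.6, 16.3, and 11.8 CPM in the VPM, and at 21.6, 28.7, 16.9, and 19.2 CPM in the MGv. The MGv libraries were above all VPM libraries, the closest being MGv c and VPM c, and the other groups overlapped. The dLG was 1.61-fold below the cortex (log2FC = -0.68 ± 0.27, adjusted p = 0.0999), at the threshold, called in 4 of 14 alternatives and lost without cortex b, c, or d or dLG c, d, or e. Without cortex c its adjusted p was 0.399. The VPM below the MGv (-0.69 ± 0.28, adjusted p = 0.131) and the thalamus below the cortex (-0.39 ± 0.27, adjusted p = 0.440) did not pass.

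**Figure D4:**
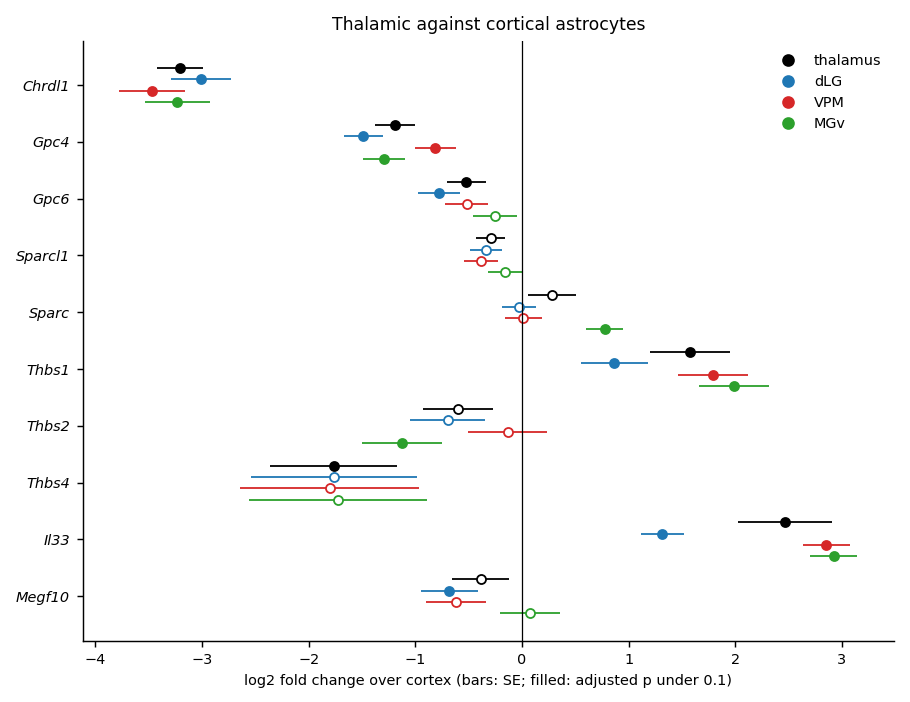
Log2 fold change over the cortex for the whole thalamus (black, n = 13) and for VPM and MGv (n = 4 each) and dLG (n = 5), all against the same 4 cortical libraries; bars are SE, and filled points have an adjusted p under 0.1 in edgeR's quasi-likelihood test. Chrdl1 and Gpc4 to the left and Thbs1 and Il33 to the right of 0 were called in every nucleus. Gpc6, Sparcl1, Thbs2 and Thbs4 also lay to the left in every nucleus, without being called in all of them.

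Over single nuclei, 2 genes were higher in the dLG and 4 in the cortex, where 10.3% and 9.04% of all genes were called in these directions, and the 4 included *Megf10*. In the VPM, 2 genes were higher and 2 lower than in the cortex, against 3.56% and 5.44% of all genes. In the MGv, 3 genes were higher, *Sparc* with *Thbs1* and *Il33*, and 3 were lower, *Thbs2* with *Chrdl1* and *Gpc4*, against 7.87% and 7.51% of all genes.

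Between nuclei, no gene of the 10 was higher in the dLG than in another nucleus or in the VPM than in the MGv, where 7.93% (dLG over VPM), 0.571% (dLG over MGv), and 7.40% (VPM over MGv) of all genes were called. At an unadjusted p under 0.05 in edgeR, 0 were higher in the dLG and 2 (*Gpc4* and *Thbs2*) were higher in the VPM than in the MGv, and DESeq2 called 0 and 1 of the 10 genes. The VPM was higher than the dLG for 3 genes (*Gpc4*, *Thbs1*, and *Il33*), where 5.76% of all genes were called, and the MGv was higher than the dLG for 2 (*Sparc* and *Il33*), where 0.454% were called. The MGv was higher than the VPM for *Sparc*, where 7.97% of all genes were called.

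**Figure D5:**
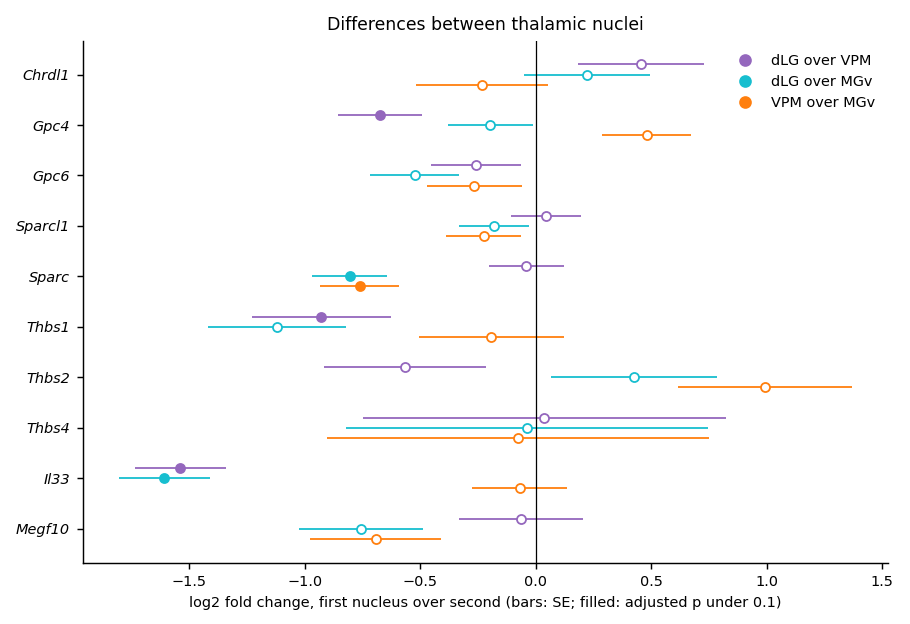
Log2 fold change between pairs of nuclei, the first named over the second (VPM and MGv, n = 4 each; dLG, n = 5); bars are SE, and filled points have an adjusted p under 0.1. Il33 was lower in the dLG than in both other nuclei, and Sparc was lower in the dLG and VPM than in the MGv.

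The thalamus was also compared with the cortex within each of the 2 series of library numbers. *Chrdl1* gave a log2FC of -3.22 ± 0.17 in the larger and -3.47 ± 0.34 in the smaller series, and *Gpc4* gave -1.05 ± 0.27 and -1.30 ± 0.25, all of which passed the test. *Il33* gave 2.76 ± 0.49 (adjusted p = 0.00644) and 2.18 ± 0.58 (adjusted p = 0.167), and *Thbs1* gave 1.77 ± 0.43 (adjusted p = 0.0375) and 1.25 ± 0.65 (adjusted p = 0.606), the smaller series having only 2 cortical and 4 thalamic libraries. *Thbs4* gave -2.25 ± 0.53 (adjusted p = 0.0342) and -0.67 ± 0.65 (adjusted p = 0.83), and *Gpc6* gave -0.31 ± 0.22 and -0.74 ± 0.29, neither of which passed. For the dLG against the VPM, the log2FC of *Il33* was -1.43 ± 0.25 (adjusted p = 0.0351) and -1.44 ± 0.37 (adjusted p = 0.563), and that of *Gpc4* was -0.72 ± 0.31 and -0.62 ± 0.23, neither of which passed, nor did *Thbs1* in either series.

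Single nuclei were set against the cortex within a series in the same way. *Chrdl1* passed for each nucleus in every series that held it. *Gpc4* passed for the dLG in both series and for the MGv in the larger, but the VPM gave -0.63 ± 0.31 (adjusted p = 0.391) in the larger and -1.02 ± 0.23 (adjusted p = 0.118) in the smaller series. *Gpc6* in the dLG gave -0.47 ± 0.26 (adjusted p = 0.437) and -0.96 ± 0.33 (adjusted p = 0.315). *Thbs1* passed for the VPM and the MGv in the larger series, but not for the VPM in the smaller (1.82 ± 0.51, adjusted p = 0.233) nor for the dLG in either (0.92 ± 0.34 and 0.28 ± 0.50). *Il33* passed for each nucleus except the dLG in the smaller series (1.29 ± 0.37, adjusted p = 0.228), and *Megf10* in the dLG passed in neither (-0.52 ± 0.33 and -0.52 ± 0.35). For the MGv in the larger series, *Thbs4* (-2.22 ± 0.66, adjusted p = 0.0748) and *Thbs2* (-1.31 ± 0.42, adjusted p = 0.0991) passed, whereas neither passed for the dLG or VPM in either series. Within the larger series, *Thbs2* also passed for the VPM over the MGv (1.29 ± 0.42, adjusted p = 0.0979).

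Of 15 tested paralogs and family members, 1 was called toward the thalamus and 2 toward the cortex, where 5.45% and 5.93% of all genes were called, with a median log2FC of 0.15 against 0.02 over all genes. *Fstl1*, which encodes a secreted relative of SPARC, averaged 41.1 ± 8.05 CPM over the thalamic and 87.3 ± 17.1 CPM over the cortical libraries (SD, n = 13 and 4; log2FC = -1.09 ± 0.15, adjusted p = 6.97e-05). The glypican *Gpc5* fell in the same direction as *Gpc4*, with 56.1 ± 23.4 and 138 ± 21.0 CPM (log2FC = -1.30 ± 0.28, adjusted p = 0.00516). *Megf11*, a paralog of *Megf10*, was higher in the thalamus (178 ± 28.5 against 125 ± 13.4 CPM, log2FC = 0.51 ± 0.14, adjusted p = 0.0234).

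Between nuclei, *Gpc5* resembled *Gpc4* in being lower in the dLG than in the VPM (34 ± 10.5 against 83.8 ± 4.32 CPM, n = 5 and 4, log2FC = -1.30 ± 0.20, adjusted p = 0.00161). *Gpc1* was higher in the dLG than in the MGv (209 ± 76.8 against 109 ± 10.5 CPM, adjusted p = 0.0486). *Smoc1*, which encodes another SPARC relative, resembled *Sparc* in being lower in the VPM than in the MGv (93.3 ± 19.8 against 169 ± 42.9 CPM, log2FC = -0.86 ± 0.21, adjusted p = 0.0167). Unlike *Sparc*, it was not called between the dLG and the MGv.

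Of 19 genes for receptors and partners of these proteins, 1 was called toward the thalamus and 4 toward the cortex, against the same 5.45% and 5.93% of all genes, with a median log2FC of -0.09. *Nptx2*, which encodes a neuronal pentraxin that clusters AMPA receptors, averaged 25.2 ± 9.65 CPM over the thalamic and 59.0 ± 6.69 CPM over the cortical libraries (log2FC = -1.23 ± 0.23, adjusted p = 0.00152). *Gria2*, the gene of the AMPA receptor subunit GluA2, was at 430 ± 80.7 and 707 ± 92.3 CPM (-0.72 ± 0.15, adjusted p = 0.00342), and the BMP receptor gene *Bmpr1a* at 111 ± 29.5 and 169 ± 16.1 CPM (-0.60 ± 0.17, adjusted p = 0.0313). *Cacna2d1*, which encodes the thrombospondin receptor α2δ-1, was the fourth gene higher in the cortex. *Cd36*, a receptor of thrombospondins, averaged 2.57 ± 1.55 CPM over the thalamic and 0.181 ± 0.330 CPM over the cortical libraries (adjusted p = 0.0142). Its cortical level lies near the limit of detection, so that no fold is given.

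Among nuclei, 2 of these 19 genes were called higher in the VPM than in the MGv and 6 lower, against 7.40% and 7.97% of all genes. For the dLG over the VPM and the reverse they were 2 and 2, against 7.93% and 5.76%. For the dLG over the MGv and the reverse they were 1 and 0, against 0.571% and 0.454%. The BMP ligand gene *Bmp4* was at 89.9 ± 33.7 CPM in the VPM and 21.3 ± 7.35 CPM in the MGv (n = 4 each, log2FC = 2.08 ± 0.30, adjusted p = 0.000467). It was also called in both other comparisons between nuclei. *Ptprs*, which encodes a glypican-binding receptor phosphatase, was higher in the dLG than in the VPM (463 ± 143 against 233 ± 17.9 CPM, adjusted p = 0.0126), and *Bmp7* was lower (87.7 ± 13.1 against 126 ± 19.4 CPM, adjusted p = 0.0198).

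Of 16 genes of engulfment and of the response to interleukin-33, 2 were called toward the thalamus and 2 toward the cortex, beside 5.45% and 5.93% of all genes, with a median log2FC of 0.03. *Il1rap*, which encodes the coreceptor through which interleukin-33 signals, averaged 85.4 ± 22.1 CPM over the thalamic and 166 ± 22.2 CPM over the cortical libraries (log2FC = -0.96 ± 0.19, adjusted p = 0.00219), opposite in direction to *Il33*. Its partner *Il1rl1* was on the same list, of whose 17 genes 16 had counts, and was not among those called in any comparison. *Mertk*, the phagocytic receptor that acts beside MEGF10, was at 51.4 ± 12.4 and 84.4 ± 18.5 CPM (-0.71 ± 0.17, adjusted p = 0.0108), and *Elmo1*, which acts downstream of such receptors, at 170 ± 58.8 and 105 ± 11.4 CPM (0.70 ± 0.24, adjusted p = 0.0785).

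The complement gene *C1qc*, expressed mainly by microglia, was higher in the thalamus (5.24 ± 3.99 against 1.31 ± 0.330 CPM, adjusted p = 0.0998), at the threshold. Of single nuclei, the dLG and the MGv were called over the cortex for *C1qc*, but the VPM was not. *C1qc* was also higher in the dLG than in the VPM (8.34 ± 4.05 against 1.23 ± 0.897 CPM, log2FC = 2.75 ± 0.54, adjusted p = 0.00734), where 6 of 7 microglia markers were also higher in the dLG. The part of microglia in these values was not tested. *Elmo1* was lower in the dLG than in the VPM (130 ± 19.2 against 229 ± 55.1 CPM, adjusted p = 0.0175), and *Abca1*, which encodes a lipid transporter of the engulfment pathway, was lower in the VPM than in the MGv (131 ± 40.8 against 279 ± 76.9 CPM, adjusted p = 0.0232).

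Genes whose levels followed those of the 10 most closely were ranked by Pearson's r of log2(CPM + 0.5) over the 17 libraries among 10463 genes with a mean of at least 10 CPM. The libraries share their groups and depths, so that r mainly reflects differences between groups and is given as a description. *Chrdl1* was most like *Tspan7* (r = 0.970, Spearman's rho = 0.811), *Nim1k* (r = 0.957), and *Lhx2* (r = 0.955), of which *Lhx2* averaged 231 CPM over the cortical libraries against 3.61 to 12.6 CPM in the nuclei. *Gpc4* was most like *Acsl6* (r = 0.942, rho = 0.887), *Slco1c1* (r = 0.940), and *Vegfa* (r = 0.934).

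For *Il33* these were *Wls* (r = 0.913, rho = 0.841), *Lrig3* (r = 0.882), and *Skap2* (r = 0.878), and for *Thbs1* they were *Il33* itself (r = 0.857, rho = 0.843), *Lrig3* (r = 0.805), and *Wls* (r = 0.791). No other pair of the 10 genes appeared among these nearest genes. *Thbs2* and *Thbs4* could not appear as a nearest gene, since their means were under 10 CPM in every group. *Sparc* was most like *Cd2ap* (r = 0.831), *Camk2g* (r = 0.831), and *Fxyd1* (r = 0.821), *Sparcl1* like *Mxra8* (r = 0.855), *P4ha3* (r = 0.851), and *Appl2* (r = 0.847), and *Gpc6* like *Cpe* (r = 0.888), *Otud1* (r = 0.877), and *Pink1* (r = 0.862). *Megf10* was most like *Gpt* (r = 0.901), *Elk3* (r = 0.824), and *Dexi* (r = 0.814). For the low genes, *Thbs2* was most like *Mipep* (r = 0.872), *2010315B03Rik* (r = 0.866), and *Aaed1* (r = 0.861), and *Thbs4* like *Zfp94* (r = 0.876), *Pnpla7* (r = 0.875), and *Mbtps1* (r = 0.875).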

How the data were processed

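The authors trimmed adapters with Cutadapt (version 2.3) and Trim Galore (version 0.6.1), mapped the single-end reads to GRCm38 with STAR (version 2.7.0d), counted them on genes of Ensembl release 95 with featureCounts of Subread (version 1.6.4), and deposited the counts of each library as raw numbers of reads per gene. Whether counting used strand is not given in the sources used here. The deposited genes each have at least 10 counts over all libraries. Identifiers were matched to Ensembl release 96, where 26548 of 26556 were found, and exonic lengths came from there. Groups came from the sample labels. Genes were filtered with filterByExpr and tested with edgeR (version 4.0.16, TMM factors, robust quasi-likelihood test) in R 4.3.3. Thalamus and cortex were fitted as 2 groups, and single comparisons came from one fit of all 4 groups, which share an estimate of the spread. The script was tested on simulated data. SE is the size of the log2FC over the square root of *F*. The alternatives were DESeq2 (version 1.42.0), its size factors, no filter, an adjusted p under 0.05, the replicate block, a covariate for the series of library numbers, other groupings in the fit, each library left out, and, chosen after seeing the data, each library number series alone. The 10 genes and all lists were chosen with earlier results of these data known. Related genes were named by lowest p among those past the threshold, up to 4 per list between regions and up to 3 between nuclei, *Cacna2d1* having been added after its values were seen. Nearest genes were the 3 with the highest r. Promoter sequences are RefSeq's, available for 5 of the 10 genes, of which 2 are shown. Numpy 2.4.6, pandas 2.3.3, and scipy 1.17.1 were used in Python 3.11.15.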

Additional observations from a re-analysis of the deposited data

Results flagged for a closer look

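In each of the 4 groups, the highest and the lowest library of each of the 10 genes was compared with the nearest of the others by Dixon's criterion at its 95% critical value, which chance passes in about 1 in 20 groups. Of the 40 sets of values, 4 passed. *Chrdl1* in cortex c was at 189 CPM, below the other cortical libraries at 229 to 232 CPM. *Sparcl1* in MGv c was at 8124 CPM, above 5159 to 5520 CPM in the other MGv libraries. *Thbs4* in MGv c was at 3.61 CPM, above 1.09 to 1.45 CPM. *Megf10* in cortex c was at 31.3 CPM, above 15.5 to 17.8 CPM. The summed level of astrocyte markers in MGv c, 15548 CPM, was the highest of all libraries. That sum includes *Gfap*, which ranged from 36.1 to 5520 CPM over the MGv libraries. None of these values was removed.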

How the results depend on the processing

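Over the 10 genes between the regions and the genes called in the other comparisons, 565 values were examined under the alternatives other than single library number series. Of these, 500 stayed on their side of the threshold, 64 no longer passed, 1 newly passed, and none changed its direction. Values at the stricter threshold reuse the main fit, so that there only calls with an adjusted p of 0.05 or more could change. Of 55 values within one library number series, 34 stayed on their side and 21 no longer passed, each fit having fewer libraries. Among differences not called, DESeq2 also passed *Thbs4* for the dLG against the cortex (adjusted p = 0.0915), *Thbs1* for the dLG against the MGv (0.0298), and *Thbs2* (0.0721) and *Megf10* (0.0663) for the VPM against the MGv. The covariate passed *Thbs4* for the MGv against the cortex (0.0830) and *Thbs1* for the dLG against the MGv (0.0628), and the replicate block passed *Sparcl1* for the VPM against the cortex (0.0930). The count of the 10 genes higher in the cortex than in the thalamus (4) was 2 at an adjusted p under 0.05, 2 with the replicate block, and 2 to 5 with each library left out. The count higher in the dLG than in the cortex (2) was 1 at an adjusted p under 0.05, 1 with the replicate block, 1 with a covariate for the library number series, and 1 to 2 with each library left out. The count higher in the VPM than in the dLG (3) was 1 to 3 with each library left out, the lowest without VPM c. In the VPM against the MGv, the count higher in the VPM (0) was 1 with the replicate block, 1 with the covariate, 1 in DESeq2, and 0 to 1 with each library left out, and the count higher in the MGv (1) was 2 in DESeq2. The cause was not tested.

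Replicate letters did not pair the libraries: of 24 same-letter pairs between groups, 6 had deviations correlated over 0.1 (range, -0.17 to 0.27), and 0 of 16 libraries correlated best with their own letter in every other group. Over all genes, 974 were higher in the thalamus, against 1704 in DESeq2 and 612 at an adjusted p under 0.05. Of the dLG over the MGv and the reverse, 102 and 81 genes became 202 and 210 in DESeq2 and 64 and 48 in a fit of the 3 nuclei. Of the dLG over the VPM and the reverse, 1416 and 1029 became 2268 and 1262 in DESeq2, 930 and 608 with the covariate, and 1401 and 557 with no filter on low counts. Of the VPM over the MGv and the reverse, 1322 and 1424 became 1473 and 2240 in DESeq2 and 687 and 1410 with no filter. Ranked by Spearman's rho, 0 to 3 of the 3 genes most like each of the 10 were shared with the ranking by r. The lowest library held 71 counts of *Thbs1*, 37 of *Thbs2*, and 0 of *Thbs4*, which limits their precision.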
